A study of Mus musculus with 42 samples.

Results

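Egr1, Egr2, Egr3, Egr4, Nr4a1, Nr4a2, Nr4a3, Arc, Npas4 and Ier2 are early-response genes, whose transcripts rise quickly when a cell is stimulated, and they were taken by symbol. These are 10 of the 44674 genes in the table, and all 10 passed the filter on low counts that left 21168 genes to test. The data are RNA sequencing of whole main olfactory epithelium from male C57BL/6NCrl mice, which were adults of 8 to 12 weeks by the study's methods. The mice spent 1 h with no odour or with the odour of 1 of 3 diets, namely normal chow (NCD), a bacon-flavoured diet (Bacon) or a lard-based high-fat diet (HFD). Each pool combined 4 epithelia, and there were 5 pools with No Odour, 6 with NCD, 5 with Bacon and 5 with HFD, so a pool and not an animal is the replicate. Every pool gave a pulldown library, in which an antibody against phosphorylated ribosomal protein S6 captured ribosomes with their mRNA, and an input library of the whole homogenate, for 42 libraries in all. The labels name no allele or agent beyond the strain and the odour, and whole epithelia were used, so each library mixes all cell types of the tissue.

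Odorants act on olfactory sensory neurons through receptors that raise cyclic AMP, which opens channels that let calcium in. Cyclic AMP and calcium both lead to the activation of transcription factors such as Creb1 and Srf, which switch on early-response genes without new protein synthesis. Phosphorylation of S6 also follows activity, and on that ground the antibody is used to capture ribosomes of recently active cells. How far the capture was limited to such cells was not tested. The Egr genes code for zinc finger transcription factors, the Nr4a genes for nuclear receptors that act without a known ligand, Npas4 for a transcription factor that heterodimerises with Arnt proteins, Arc for a protein of synaptic plasticity and Ier2 for a small nuclear regulator.

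The stretches before the transcription start are shown because Nr4a1 and Nr4a2 are the transcripts whose pulldown levels rose under every odour and for which a reference stretch was at hand. Egr2 and Nr4a3 are relatives whose pulldown levels did not pass the test under any odour. The sequences were taken from RefSeq (GRCm38.p6), 6 members matched an entry, and Egr1, Egr3, Arc and Ier2 had none. For Npas4 no bases outside annotated exons were left. Up to 250 bases before the start are printed 5' to 3' on the gene's strand, without the bases that an annotated exon of the gene holds, and capitals mark the cAMP response element core, TGACG on either strand (CGTCA where it reads on the other strand).
Nr4a1: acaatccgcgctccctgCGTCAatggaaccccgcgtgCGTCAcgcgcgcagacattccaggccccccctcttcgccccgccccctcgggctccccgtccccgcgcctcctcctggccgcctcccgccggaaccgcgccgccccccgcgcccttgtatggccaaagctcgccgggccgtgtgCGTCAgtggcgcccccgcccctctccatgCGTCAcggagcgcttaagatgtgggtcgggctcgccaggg
Nr4a2: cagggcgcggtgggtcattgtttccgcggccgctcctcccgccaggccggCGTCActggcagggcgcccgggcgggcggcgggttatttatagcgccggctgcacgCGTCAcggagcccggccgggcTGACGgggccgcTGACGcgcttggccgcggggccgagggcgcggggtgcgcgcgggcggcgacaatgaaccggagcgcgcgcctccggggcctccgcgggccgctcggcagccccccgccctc
Nr4a3: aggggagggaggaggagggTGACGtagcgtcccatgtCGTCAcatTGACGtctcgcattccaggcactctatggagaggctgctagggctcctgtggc
Egr4: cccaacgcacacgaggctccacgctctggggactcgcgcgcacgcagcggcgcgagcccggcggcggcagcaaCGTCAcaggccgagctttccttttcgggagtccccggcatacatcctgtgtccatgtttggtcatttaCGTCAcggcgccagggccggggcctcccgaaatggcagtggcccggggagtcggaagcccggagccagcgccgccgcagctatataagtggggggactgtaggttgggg
Egr2: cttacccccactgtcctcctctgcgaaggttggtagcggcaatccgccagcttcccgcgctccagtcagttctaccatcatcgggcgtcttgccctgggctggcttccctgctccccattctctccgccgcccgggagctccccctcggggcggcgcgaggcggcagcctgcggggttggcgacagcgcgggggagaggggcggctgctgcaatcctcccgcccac

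The stretch of Nr4a1 is chr15:101266596-101266845 (plus strand) and that of Nr4a2 is chr2:57124004-57124253 (minus strand). Nr4a3 is shown for chr4:48045055-48045152 (plus strand, 98 bases), Egr4 for chr6:85513590-85513839 (minus strand) and Egr2 for chr10:67535249-67535474 (plus strand, 226 bases). Nr4a1 and Nr4a2 each held 4 cores, Nr4a3 held 3 in its shorter stretch, Egr4 held 2 and Egr2 held 0. Of 32851 RefSeq promoter stretches of 250 bases, 17.8% held at least 1 core, 3.9% at least 2, 0.688% at least 3 and 0.137% at least 4. The core nearest the start lay at positions -40 to -36 in Nr4a1, -111 to -107 in Nr4a2 and -109 to -105 in Egr4, counted so that -1 is the last base before the start. The full element TGACGTCA, which holds the core on both strands (1.55% of all stretches), the CArG box that binds Srf (1.47%), the Egr motif GCGTGGGCG (0.536%) and the Nr4a motif AAAGGTCA (1.34%) were in none of these 5 stretches, and the second Egr motif GCGGGGGCG (2.57%) was in that of Nr4a1 alone. The start of the Nr4a1 stretch lies inside the annotated span of the gene, in an intron of its longer transcripts. These matches describe letters in a window and not binding sites.

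Depth was 25392812 to 36738330 counts in the pulldowns and 24839555 to 36781553 in the inputs. The tissue label was checked against 9 markers of mature olfactory sensory neurons, all of which were measured, with a summed level of 15985 to 19535 CPM (counts scaled to library size) in the No Odour pulldowns and 17761 to 24668 CPM in the odour pulldowns. Pulldown Bacon replicate 1 stood apart from its group, with a median absolute log2 deviation of 0.345 across genes against 0.132 to 0.179 in the other Bacon pulldowns, and input No Odour replicate 4 did so with 0.319 against 0.118 to 0.176. The share of counts on ribosomal RNA differed with the odour, at 11.6% to 23.1% in the No Odour pulldowns against 8.12% to 17.5% under odour, and at 19.2% to 28.1% against 9.38% to 18.9% in the inputs. With this share, summed over 6 genes, as a covariate, 115 to 153 genes passed in the pulldown, 4 to 6 in the input and 16 to 24 in the ratio, and the members' calls that it ended are given beside each result. CPM values are scaled by TMM over all 42 libraries. Since these are bulk samples, a change in the number of cells of a type and a change in the RNA of each cell cannot be told apart.

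Before any odour, the members covered a wide range of levels. Per kilobase of exon, the highest in the No Odour pulldowns were Nr4a1 at 14.2 ± 2.89 CPM per kb (SD, n = 5), Egr1 at 9.65 ± 0.531 CPM per kb and Ier2 at 7.56 ± 0.800 CPM per kb. Nr4a3 (2.79 ± 1.01 CPM per kb), Nr4a2 (1.75 ± 0.239 CPM per kb) and Arc (1.68 ± 0.193 CPM per kb) followed, and the ranges of these 3 overlapped. Egr2 stood at 0.862 ± 0.167 CPM per kb, Egr3 at 0.327 ± 0.123 CPM per kb, Egr4 at 0.160 ± 0.115 CPM per kb and Npas4 at 0.0392 ± 0.0291 CPM per kb. Egr3 and Egr4 overlapped each other, as did Egr4 and Npas4, while the ranges of all other neighbours in this order did not. In the No Odour inputs the order began with Ier2 at 8.27 ± 0.963 CPM per kb, Nr4a1 at 5.39 ± 0.953 CPM per kb and Egr1 at 5.07 ± 0.176 CPM per kb, of which Nr4a1 and Egr1 overlapped. Nr4a2 (1.50 ± 0.392 CPM per kb), Nr4a3 (0.960 ± 0.385 CPM per kb), Arc (0.803 ± 0.254 CPM per kb) and Egr2 (0.386 ± 0.0927 CPM per kb) each overlapped the next, and Egr3, Npas4 and Egr4 lay between 0.0695 and 0.0918 CPM per kb with overlapping ranges.

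Some members were higher in the pulldown than in the input when no odour was given. Of the 10 members, 6 passed the test of pulldown against input in No Odour pools (adjusted p under 0.001, edgeR), and all 6 were higher in the pulldown, where 35.8% of all genes tested passed in either direction. At an adjusted p under 0.05 the same 6 members passed, a share near the 59.5% of all genes, so passing was not particular to the members. The share of all genes that were higher in the pulldown is not given. The log2 difference was 1.84 ± 0.33 (SE) for Egr3, 1.55 ± 0.11 for Nr4a3, 1.39 ± 0.09 for Nr4a1, 1.16 ± 0.17 for Egr2, 1.09 ± 0.14 for Arc and 0.93 ± 0.08 for Egr1. Egr4 had a log2 difference of 1.11 ± 0.50 and an adjusted p of 0.0594 in edgeR's test, with only 0 to 21 counts per pulldown. Nr4a2, Npas4 and Ier2 did not pass, with adjusted p of 0.113, 0.199 and 0.212 in edgeR's test. With the share of ribosomal RNA added to the fit the adjusted p of Egr3 was 0.0031 in edgeR's test.

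Egr1, Nr4a1 and Nr4a2 rose in the pulldown under each odour. Npas4, on few counts, had log2 fold changes of 1.95 (NCD), 2.43 (Bacon) and 2.09 (HFD) and passed for Bacon alone. That call was lost when any of several single pools was left out. The question here was which early-response transcripts on captured ribosomes differ after 1 h of food odour, and all comparisons share the same 5 No Odour pools. For NCD, 3 of 10 members passed an adjusted p of 0.001, against 3.7% of all genes, and these were Egr1, Nr4a1 and Nr4a2. For Bacon 4 of 10 passed, against 3.77%, with Npas4 as the additional gene, and for HFD 3 of 10 passed, against 4.63%, the same 3 as for NCD. Every member that passed was higher with odour. At an adjusted p under 0.05 the counts were 6 for NCD, 7 for Bacon and 5 for HFD, against 18.2%, 16.3% and 20.1% of all genes, and these too were all higher. The median log2 fold change of the 10 members was 0.52 for NCD, 0.83 for Bacon and 0.72 for HFD, where the median of all genes was -0.00059 for NCD, 0.029 for Bacon and -0.0044 for HFD.

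Some markers of other cell types differed with the odour too, at an adjusted p under 0.001. Of all genes, 3.7% (NCD), 3.77% (Bacon) and 4.63% (HFD) passed in the pulldown in either direction. In the input the shares of all genes were 0.968%, 13.1% and 0.935%. Of 7 macrophage markers, 6 fell in the pulldown under NCD, 7 under Bacon and 6 under HFD, and their summed level was 257 to 306 CPM in the No Odour pulldowns and 165 to 202 CPM in the odour pulldowns. In the inputs it was 211 to 306 CPM against 178 to 241 CPM, with 2 of the 7 lower under Bacon. Of 6 markers of immature sensory neurons, 1 fell in the pulldown under NCD, 2 under Bacon and 2 under HFD, with a summed level of 1467 to 1704 CPM without odour and 1079 to 1496 CPM with it. Of the 9 markers of mature sensory neurons, 2 rose in the pulldown under NCD, 2 under Bacon and 1 under HFD, and none of these lists had a marker at 0. In the inputs, 3 of the 6 immature neuron markers fell under Bacon, and of the mature neuron markers 1 rose and 2 fell under Bacon. Of 5 fibroblast markers 3 fell in the input under NCD and 3 under Bacon, with a summed level of 2134 to 2957 CPM without odour and 1621 to 2355 CPM with it. Of 7 gland markers in the pulldown, 1 rose and 2 fell under NCD, 1 rose and 1 fell under Bacon and 2 rose and 2 fell under HFD. Also in the pulldown, 2 of 6 globose basal markers fell under Bacon and 1 under HFD. Among 9 neutrophil markers 1 rose and 2 fell under NCD, 1 fell under Bacon and 1 rose and 1 fell under HFD. Among 7 supporting cell markers 1 fell under NCD and 1 under HFD. The part of these differences in the levels of the members was not tested.

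The input changed in fewer members under NCD and in a partly different set. Egr1 and Nr4a1 passed for NCD (2 of 10, against 0.968% of all genes), Egr1, Nr4a1, Nr4a2 and Arc for Bacon (4 of 10, against 13.1%) and Egr1, Nr4a1 and Nr4a2 for HFD (3 of 10, against 0.935%). All of these were higher with odour. At an adjusted p under 0.05 the counts were 4, 7 and 5, against 22.5%, 38.5% and 20.7% of all genes, and 1 of the 7 for Bacon, Egr2, was lower. The plot of fold changes sets the pulldown beside the input for every member.

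**Figure D1:**
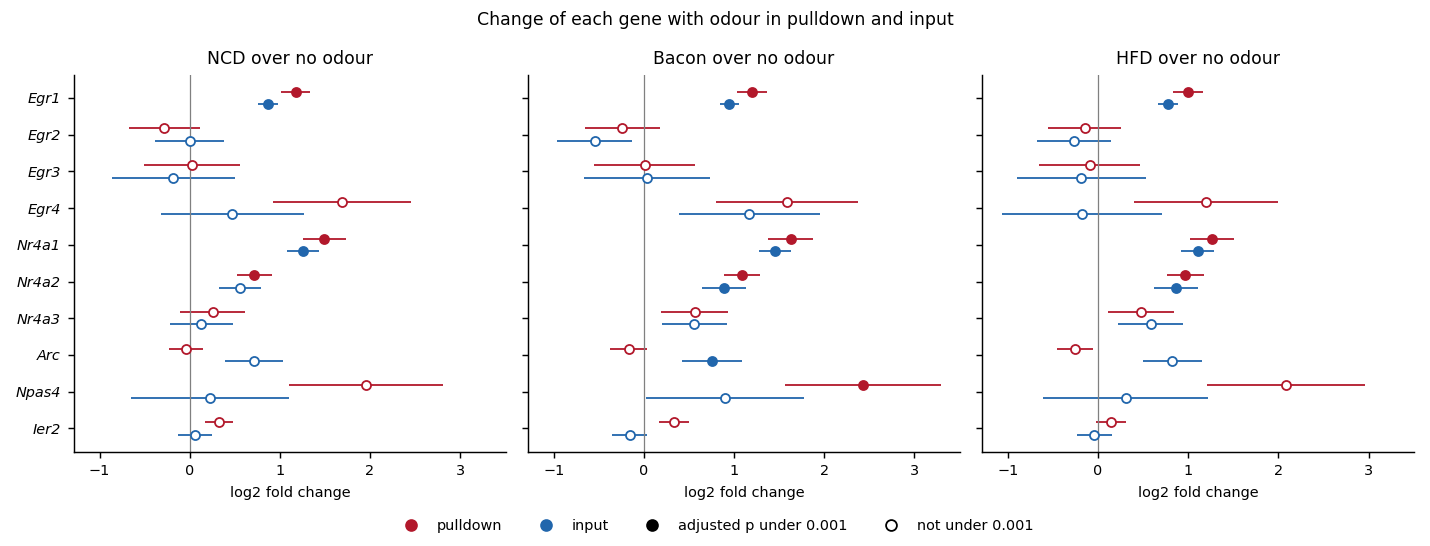
Log2 fold change of each gene (x axis, log2 scale) under NCD, Bacon and HFD over No Odour in the pulldown (red) and the input (blue); bars are 95% confidence intervals and filled points passed an adjusted p of 0.001 in edgeR. Egr1, Nr4a1 and Nr4a2 lie above 0 in both libraries under every odour, while Arc lies above 0 in the input alone.

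**Figure D2:**
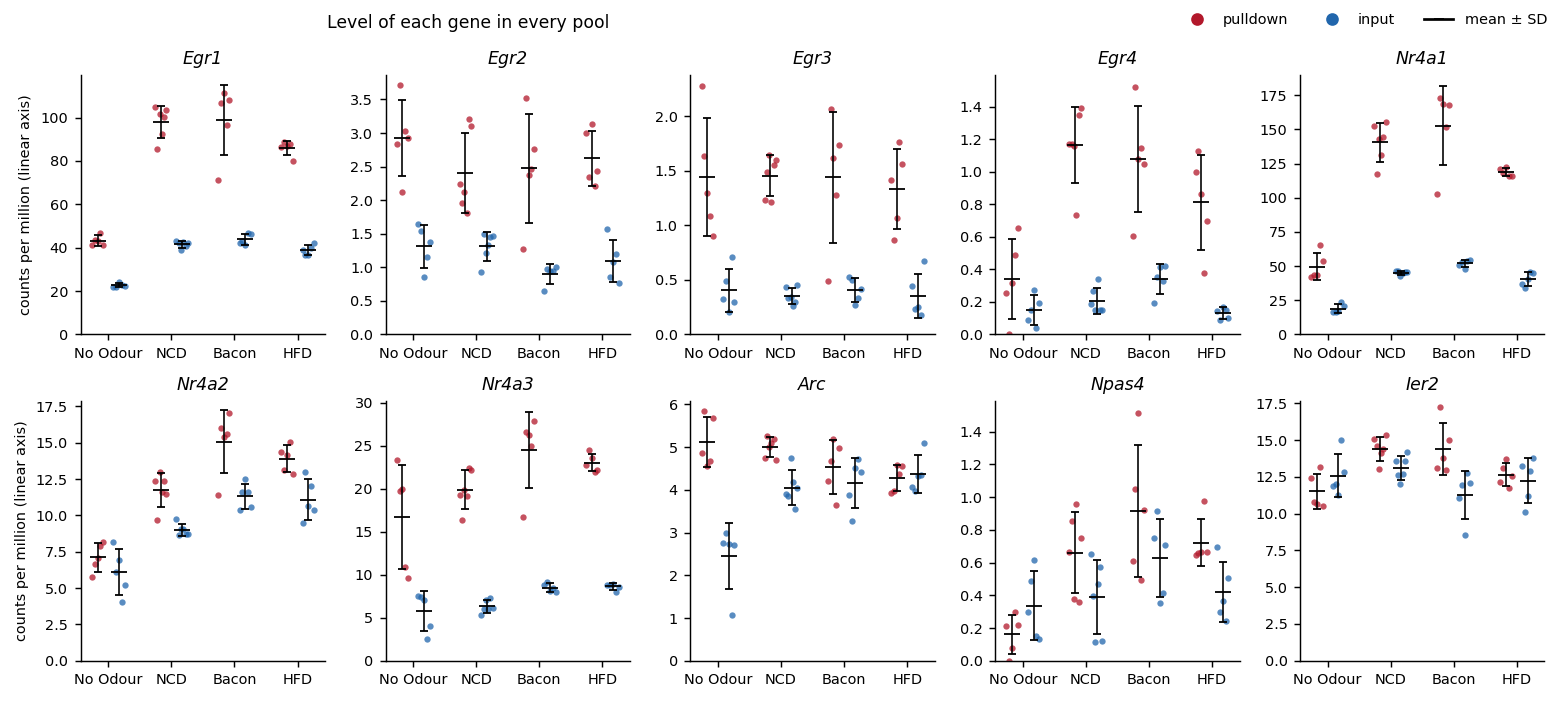
Level of each gene in CPM (y axis, linear, a scale of its own for each gene) in the pulldown (red) and input (blue) library of every pool, by odour; points are pools and black bars the mean and SD. The odour pulldowns of Egr1 (71.4 to 111 CPM) lie above all No Odour pulldowns (41.1 to 47.0 CPM).

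Egr1 (ENSMUSG00000038418, GRCm38 chromosome 18, 34859823 to 34864984, plus strand) is a widely used marker of recent neuronal activity. In the pulldown it stood at 41.1, 43.7, 43.2, 47.0 and 41.3 CPM in the No Odour pools. With NCD the lowest pool had 85.6 CPM, the median was 101 CPM and the highest had 105 CPM. With Bacon the pools had 71.4, 107, 111, 96.8 and 108 CPM. All odour pools lay above all No Odour pools, and Bacon replicate 1 was the lowest of them. With HFD the pools had 86.2, 88.6, 86.8, 87.6 and 80.1 CPM. The log2 fold change was 1.18 ± 0.08 (SE) for NCD, 1.20 ± 0.08 for Bacon and 1.00 ± 0.08 for HFD, with adjusted p of 2.55e-10, 2.52e-10 and 4.75e-09 in edgeR's test. In the input Egr1 had 22.1, 22.1, 24.0, 23.0 and 22.5 CPM in the No Odour pools, 41.2 to 46.7 CPM with Bacon, 36.5 to 42.2 CPM with HFD and 38.9 to 43.0 CPM with NCD, again without overlap. The log2 fold change in the input was 0.87 ± 0.05 for NCD, 0.95 ± 0.06 for Bacon and 0.77 ± 0.06 for HFD. The rise in the pulldown thus came with one in the input, and the log2 ratio of pulldown to input changed by 0.31 ± 0.10 for NCD (adjusted p 0.0422 in edgeR's test), 0.23 ± 0.10 for Bacon (0.123) and 0.22 ± 0.10 for HFD (0.163), none of which passed 0.001. Egr1 stayed past the threshold in pulldown and input under every alternative tried.

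Egr2 and Egr3 did not pass 0.001 with any odour in either library. Egr2 (ENSMUSG00000037868, chromosome 10, 67535475 to 67542188) is known for its role in myelination and in lymphocytes, and it had 2.13 to 3.72 CPM in the No Odour pulldowns and 1.27 to 3.52 CPM in the odour pulldowns. In the inputs it had 1.64, 1.54, 0.855, 1.15 and 1.37 CPM with No Odour and 0.641, 0.974, 0.945, 0.940 and 1.00 CPM with Bacon. The Bacon inputs lay low, although 1 No Odour pool was within their range, and the log2 fold change was -0.55 ± 0.21 with an adjusted p of 0.0408 in edgeR's test. Egr3 (ENSMUSG00000033730, chromosome 14, 70077203 to 70082614), an Egr factor known in muscle spindles and in lymphocytes, had 0.904 to 2.28 CPM in the No Odour pulldowns and 0.492 to 2.07 CPM in the odour pulldowns, with the lowest value in Bacon replicate 1. Its input counts were low, at 6 to 20 per library, so that a small change was not detectable at this depth.

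Egr4 (ENSMUSG00000071341, chromosome 6, 85511121 to 85513589), an Egr factor expressed in nervous tissue, had few counts but was higher with odour in the pulldown at the wider threshold. The No Odour pulldowns had 0.258, 0, 0.315, 0.487 and 0.654 CPM, from 0 to 21 counts. With NCD the lowest pool had 0.733 CPM, the median was 1.17 CPM and the highest had 1.40 CPM. With Bacon the pools had 0.608, 1.52, 1.08, 1.15 and 1.05 CPM and with HFD 0.999, 1.13, 0.867, 0.376 and 0.696 CPM. All NCD pools lay above all No Odour pools, while Bacon replicate 1 and HFD replicate 5 fell within the No Odour range. The log2 fold change was 1.69 ± 0.39 for NCD, 1.59 ± 0.40 for Bacon and 1.20 ± 0.41 for HFD, and edgeR's adjusted p of 0.0033, 0.0074 and 0.0383 missed 0.001. DESeq2 with the same design gave an adjusted p of 5.5e-05 for NCD and 0.000314 for Bacon, so the call rests on the tool. The ratio of Egr4 changed by a log2 value of 1.34 ± 0.65 for NCD and 1.44 ± 0.69 for HFD, which did not pass (adjusted p 0.176 and 0.165 in edgeR's test). In the input Egr4 had 1 to 14 counts per library and a log2 fold change of 1.17 ± 0.40 for Bacon (adjusted p 0.0219 in edgeR's test).

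Nr4a1 (ENSMUSG00000023034, chromosome 15, 101254269 to 101274795, plus strand), the nuclear receptor also called Nur77, had larger fold changes over No Odour than Egr1, Nr4a2 and Ier2 in both the pulldown and the input. The No Odour pulldowns had 42.3, 43.2, 43.2, 65.7 and 54.0 CPM, so replicates 4 and 6 lay above the other pools. The NCD pulldowns had 117 CPM at the lowest, 144 CPM at the median and 155 CPM at the highest. The Bacon pulldowns had 103, 173, 168, 152 and 167 CPM. The HFD pulldowns had 121, 118, 122, 116 and 116 CPM, and no odour pool overlapped the No Odour range. These pools gave log2 fold changes of 1.49 ± 0.12 for NCD, 1.63 ± 0.13 for Bacon and 1.26 ± 0.12 for HFD, with adjusted p of 1.97e-08, 7.4e-09 and 3.56e-07 in edgeR's test. In the input the No Odour pools had 16.5, 16.5, 16.9, 23.8 and 20.97 CPM, with replicates 4 and 6 again the highest. The NCD inputs ranged from 42.5 to 46.7 CPM, the Bacon inputs from 48.0 to 54.7 CPM and the HFD inputs from 34.2 to 45.9 CPM. The log2 fold change in the input was 1.26 ± 0.09 for NCD, 1.46 ± 0.09 for Bacon and 1.10 ± 0.09 for HFD. The No Odour pools 4 and 6 were high in both libraries, so their pulldown-to-input ratio did not stand apart, at log2 values of 1.46 and 1.36 against 1.36 to 1.39 in the other 3 pools. The ratio itself changed by a log2 value of 0.24 ± 0.11 for NCD, 0.15 ± 0.12 for Bacon and 0.17 ± 0.12 for HFD, with adjusted p of 0.168, 0.427 and 0.381 in edgeR's test.

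Nr4a2 (ENSMUSG00000026826, chromosome 2, 57106830 to 57124003, minus strand), known for its requirement in dopaminergic neurons, rose in the pulldown under every odour. The No Odour pulldowns had 5.76, 6.68, 7.05, 7.90 and 8.16 CPM. The NCD pulldowns had 9.72 CPM at the lowest, 12 CPM at the median and 13.0 CPM at the highest. The Bacon pulldowns had 11.4, 16.0, 15.4, 15.6 and 17.03 CPM. All lay above the No Odour pools, as did the HFD pulldowns at 14.4, 13.1, 14.2, 15.0 and 12.9 CPM. Log2 fold changes were 0.72 ± 0.10 for NCD, 1.09 ± 0.10 for Bacon and 0.97 ± 0.10 for HFD. In the input the No Odour pools had 8.18, 6.11, 6.91, 4.02 and 5.19 CPM, and the NCD inputs from 8.64 to 9.79 CPM, the Bacon inputs from 10.3 to 12.5 CPM and the HFD inputs from 9.46 to 13.0 CPM. The input log2 fold change was 0.56 ± 0.12 for NCD (adjusted p 0.00308 in edgeR's test, and 0.000796 without No Odour replicate 1, the highest of its group), 0.89 ± 0.12 for Bacon (2.3e-05) and 0.86 ± 0.12 for HFD (0.00013). With the share of ribosomal RNA added to the fit edgeR's adjusted p was 0.0109 for the NCD pulldown, 0.896 for the Bacon input and 0.393 for the HFD input. In fits on the compared groups alone it was 0.00108 for the Bacon input and 0.0272 for the HFD input. The ratio of Nr4a2 changed by a log2 value of 0.14 ± 0.18 for NCD, 0.16 ± 0.18 for Bacon and 0.08 ± 0.18 for HFD, with adjusted p of 0.673, 0.597 and 0.815 in edgeR's test.

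Nr4a3 (ENSMUSG00000028341, chromosome 4, 48045153 to 48086447, plus strand), the remaining Nr4a receptor, did not pass 0.001 for any odour over No Odour in the main edgeR fits. Its No Odour pulldowns had 23.3, 19.7, 19.9, 10.9 and 9.60 CPM, so replicates 4 and 6 had the lowest values, opposite to Nr4a1. The NCD pulldowns had 16.3 CPM at the lowest, 19.6 CPM at the median and 22.4 CPM at the highest. Bacon replicate 1 had 16.8 CPM and the other Bacon pulldowns 24.9 to 27.9 CPM. The HFD pulldowns had 22.0 to 24.5 CPM, and 2 of them lay above every No Odour pool. Its pulldown had a log2 fold change of 0.57 ± 0.19 for Bacon (adjusted p 0.0462 in edgeR's test) and 0.48 ± 0.19 for HFD (0.0824). The inputs of No Odour replicates 4 and 6 were also low, at 2.57 and 4.02 CPM against 7.11 to 7.58 CPM in the other 3 pools, and the log2 fold change in the input was 0.56 ± 0.18 for Bacon (adjusted p 0.0173 in edgeR's test) and 0.58 ± 0.18 for HFD (0.027).

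Arc (ENSMUSG00000022602, chromosome 15, 74669083 to 74672570, minus strand) was the only member whose pulldown-to-input ratio passed the test under any odour. It is known for carrying RNA between neurons and for removing glutamate receptors from synapses. Its pulldown level did not pass the test with any odour, with 4.85, 5.84, 4.57, 4.68 and 5.67 CPM in the No Odour pools, 4.70 to 5.26 CPM with NCD, 4.195, 4.68, 5.19, 3.64 and 4.99 CPM with Bacon and 3.93, 3.97, 4.57, 4.36 and 4.55 CPM with HFD. The NCD pools lay within the No Odour range and 4 of the 5 HFD pools lay below it, and the log2 fold change of the pulldown was -0.17 ± 0.10 for Bacon and -0.25 ± 0.10 for HFD, with adjusted p of 0.29 and 0.086 in edgeR's test. The input, in contrast, had 2.75, 3.00, 2.74, 1.08 and 2.71 CPM in the No Odour pools. With NCD the inputs had 3.55 CPM at the lowest, 3.97 CPM at the median and 4.75 CPM at the highest. With Bacon they had 3.88, 3.28, 4.52, 4.73 and 4.42 CPM, and with HFD 4.07, 3.97, 4.33, 4.35 and 5.10 CPM. All odour inputs lay above all No Odour inputs. The input log2 fold change was 0.71 ± 0.16 for NCD (adjusted p 0.00406 in edgeR's test), 0.76 ± 0.17 for Bacon (0.000981) and 0.82 ± 0.17 for HFD (0.00218).

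The log2 ratio of pulldown to input for Arc was 0.82, 0.95, 0.73, 2.04 and 1.05 in the No Odour pools. It was 0.07 to 0.54 with NCD, 0.11, 0.51, 0.20, -0.37 and 0.17 with Bacon, and -0.17 to 0.08 with HFD. All odour pools lay below all No Odour pools, and No Odour replicate 4, the pool whose input stood apart, had the highest ratio. The change in the log2 ratio was -0.79 ± 0.19 for NCD (adjusted p 0.00834 in edgeR's test), -0.97 ± 0.20 for Bacon (0.000999) and -1.12 ± 0.20 for HFD (0.000604). Across members, 0 of 10 passed for NCD (also 0 in DESeq2), against 0.524% of all genes. For Bacon 1 of 10 passed, against 3.78%, and for HFD 1 of 10, against 1.22%. At an unadjusted p under 0.05 there were 6 for NCD, with no share of all genes given to set beside them. At an adjusted p under 0.05 the counts were 2 for NCD (Egr1 higher and Arc lower), 2 for Bacon (Ier2 higher and Arc lower) and 1 for HFD (Arc), against 13.1%, 22.5% and 15.7% of all genes. The call for Bacon lay at the threshold, and leaving out any pool but HFD replicate 2 ended it, with a log2 change between -1.06 and -0.74. The call for HFD was lost without No Odour replicate 2 or 6 or any HFD replicate and ranged from -1.21 to -0.91. The input call for Arc under Bacon was kept only without No Odour replicate 4, HFD replicate 2 or HFD replicate 6, at 0.56 in the first of these, and edgeR's adjusted p for it was 0.896 with the share of ribosomal RNA added to the fit. With the share of ribosomal RNA added to the fit edgeR's adjusted p for the Arc ratio was 0.0154 for Bacon and 0.0141 for HFD, and in fits on the compared groups alone 0.0171 and 0.0067.

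**Figure D3:**
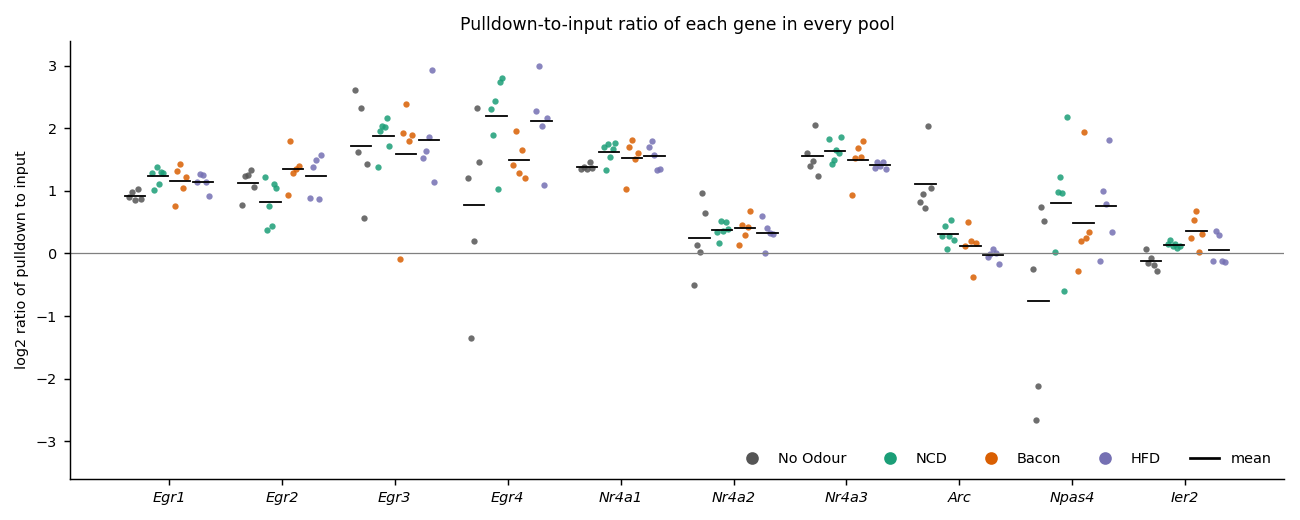
Log2 ratio of pulldown to input (y axis) for each gene in every pool, coloured by odour, with black lines at the group means. Arc falls from means of 1.12 without odour to 0.30 with NCD, 0.13 with Bacon and -0.03 with HFD, while Egr4 and Npas4, with as few as 0 counts in a library, spread widely.

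Npas4 (ENSMUSG00000045903, chromosome 19, 4984355 to 4990316, minus strand), which is known to respond to calcium in neurons, had the highest fold change of all members in the pulldown, on few counts. The No Odour pulldowns had 0.215, 0, 0.0787, 0.300 and 0.218 CPM, from 0 to 8 counts. The NCD pulldowns had 0.359 CPM at the lowest, 0.707 CPM at the median and 0.956 CPM at the highest. The Bacon pulldowns had 0.608, 1.05, 1.51, 0.492 and 0.919 CPM and the HFD pulldowns 0.644, 0.657, 0.667, 0.978 and 0.667 CPM. The odour groups did not overlap the No Odour group. The log2 fold change was 1.95 ± 0.44 for NCD (adjusted p 0.0027 in edgeR's test), 2.43 ± 0.44 for Bacon (0.000412) and 2.09 ± 0.45 for HFD (0.00162). The fitted change of a gene with a count of 0 in 1 library depends on the prior count of the fit and is not a bound. The Bacon call in edgeR was lost without No Odour replicate 1 (adjusted p 0.00111) or 3 (0.00215), or Bacon replicate 2 (0.00121), 3 (0.00205) or 5 (0.00112). It was also lost in edgeR with the share of ribosomal RNA added to the fit (0.0156), on the compared groups alone (0.0131) and with the replicate block. DESeq2 called NCD (0.00015) and HFD (6.2e-05) as well. In the input the No Odour pools had 0.298, 0.487, 0.616, 0.149 and 0.131 CPM and the Bacon pools 0.753, 0.915, 0.354, 0.415 and 0.710 CPM, which overlapped, with a log2 fold change of 0.90 ± 0.44 (adjusted p 0.115 in edgeR's test). The ratio of Npas4 changed by a log2 value of 1.74 ± 0.75 for NCD, 1.41 ± 0.76 for Bacon and 1.73 ± 0.77 for HFD, none of which passed (adjusted p 0.127, 0.196 and 0.128 in edgeR's test).

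Ier2 (ENSMUSG00000053560, chromosome 8, 84661331 to 84662852, minus strand) had smaller differences, which did not pass 0.001. The No Odour pulldowns had 12.4, 10.8, 10.6, 13.2 and 10.5 CPM. The NCD pulldowns had 13.0 CPM at the lowest, 14.5 CPM at the median and 15.3 CPM at the highest, and the Bacon pulldowns had 13.1, 17.2, 13.8, 12.9 and 15.0 CPM. Both ranges began near the highest No Odour pool, and the log2 fold change was 0.32 ± 0.08 for NCD and 0.33 ± 0.08 for Bacon, with adjusted p of 0.00562 and 0.00641 in edgeR's test. The HFD pulldowns, at 11.8 to 13.7 CPM, overlapped the No Odour pools. In the inputs the odour pools had 8.56 to 14.2 CPM and the No Odour pools 11.3 to 15.0 CPM. The ratio of pulldown to input changed by a log2 value of 0.27 ± 0.12 for NCD (adjusted p 0.137 in edgeR's test) and 0.49 ± 0.12 for Bacon (0.00573). Without Bacon replicate 1 and No Odour replicate 4, the Ier2 pulldown passed for NCD (adjusted p 0.000989) and Bacon (0.000766) in edgeR's test. That exclusion was not planned. Bacon replicate 1 stood apart in the pulldown, but No Odour replicate 4 did so in the input only. No Odour replicate 4 also had the highest No Odour pulldown of Ier2 (13.2 CPM).

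The odours were also compared with each other, in the same fits, which take the spread from all groups including No Odour. No member passed an adjusted p of 0.001 in edgeR for any difference among NCD, Bacon and HFD, in the pulldown (0 of 10, against 0.439% of all genes), the input (0 of 10, against 0.161%) or the ratio (0 of 10, against 0.0472%), and DESeq2 called 0 in each as well. At an adjusted p under 0.05 the counts were also 0, against 1.34%, 1.54% and 0.132% of all genes. At an unadjusted p under 0.05 they were 4, 6 and 1. The share of all genes at that cut is not given, so these counts cannot be read as particular to the members. The lowest adjusted p in edgeR's test were 0.0747 for Nr4a1 and 0.124 for Egr4 in the input and 0.115 for Nr4a2 in the pulldown. Mean pulldown levels of Nr4a1 were 140.4 ± 14.2 CPM (SD, n = 6) with NCD, 153 ± 29.0 CPM (n = 5) with Bacon and 119 ± 3.01 CPM (n = 5) with HFD. Without Bacon replicate 1 and No Odour replicate 4, an exclusion that was not planned, Nr4a1 in the pulldown passed. Bacon replicate 1 had the lowest Bacon pulldown of Nr4a1 (103 CPM), and no member passed when single pools were left out. These tests do not show that the odours acted alike.

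Other genes of the same pathways were counted by lists, which were chosen with earlier results of these data known. A list's share above that of all genes is therefore a description and not independent support. Of 31 other early-response genes tested, 7 rose and 1 fell in the pulldown under NCD, 10 rose and 1 fell under Bacon and 6 rose under HFD, where 3.7%, 3.77% and 4.63% of all genes passed in either direction. In the input 6 rose and 1 fell under NCD, 6 rose and 3 fell under Bacon and 4 rose and 1 fell under HFD, against 0.968%, 13.1% and 0.935% of all genes, while in the ratio 1 gene, Btg2, rose under Bacon, against 3.78%. The median log2 fold change of the list was 0.092 for NCD, 0.024 for Bacon and 0.072 for HFD in the pulldown, with genes on both sides, and 16, 14 and 14 of the 31 reached an adjusted p under 0.05, where 18.2%, 16.3% and 20.1% of all genes did. Fos, the partner of Jun in the AP-1 factor, had log2 fold changes of 1.51 ± 0.11 (NCD), 1.53 ± 0.12 (Bacon) and 1.24 ± 0.12 (HFD) in the pulldown and 1.55 ± 0.10, 1.63 ± 0.11 and 1.45 ± 0.11 in the input. Sik1, a kinase that restrains Creb coactivators, had 0.99 ± 0.08, 0.99 ± 0.08 and 0.74 ± 0.08 in the pulldown and 0.93 ± 0.08, 1.02 ± 0.09 and 0.83 ± 0.09 in the input. Ier5, a relative of Ier2, had 0.65 ± 0.06, 0.65 ± 0.07 and 0.58 ± 0.07 in the pulldown and 0.75 ± 0.06, 0.59 ± 0.06 and 0.52 ± 0.06 in the input. Of these 3 genes none changed its ratio past the threshold, and Btg2, an antiproliferative regulator, had a ratio change of 0.63 ± 0.11 for Bacon (adjusted p 0.000265 in edgeR's test). Klf10 and Dusp6 had 0.39 ± 0.10 and -0.25 ± 0.10 for Bacon and did not pass.

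Of 25 partners and upstream factors tested, 6 reached an adjusted p under 0.05 in the pulldown under each odour, without passing 0.001, a share near that of all genes (18.2%, 16.3% and 20.1%). In the input 4 passed for Bacon (3 higher and 1 lower, near the 13.1% of all genes) and 1 for HFD (0.935% of all genes), and 7 reached 0.05 for NCD, also near the 22.5% of all genes. In the ratio 1 fell under NCD, 2 under Bacon and 1 under HFD, against 0.524%, 3.78% and 1.22% of all genes. Arnt2, an Arnt partner of Npas4, had a lower pulldown-to-input ratio under every odour, with log2 changes of -0.71 ± 0.11 (NCD), -0.84 ± 0.12 (Bacon) and -0.72 ± 0.12 (HFD) and adjusted p of 0.000251, 4.87e-05 and 0.000264 in edgeR's test. Its pulldown level went from a mean of 18.1 ± 1.50 CPM (SD, n = 5) without odour to 14.7 ± 1.57 CPM (n = 6) with NCD, 13.3 ± 0.655 CPM (n = 5) with Bacon and 14.3 ± 1.66 CPM (n = 5) with HFD, while its input went from 13.7 ± 2.63 CPM to 18.1 ± 1.43, 17.9 ± 0.545 and 17.6 ± 1.35 CPM. Crtc3, a Creb coactivator, had a lower ratio for Bacon (log2 change -0.42 ± 0.08, adjusted p 0.000825 in edgeR's test) and a higher input for Bacon (0.40 ± 0.07) and HFD (0.40 ± 0.07). Nab2, a corepressor of Egr factors, had a ratio change of -0.51 ± 0.12 for Bacon that did not pass (adjusted p 0.00363 in edgeR's test). Over the mean of the 3 odours, Creb1 had a log2 fold change of 0.26 ± 0.05 in the pulldown and 0.22 ± 0.04 in the input, both past the threshold. Elk4 had 0.30 ± 0.06 in the input and Elk1 had -0.24 ± 0.05 in the pulldown, which did not pass. The share of all genes that passed for this mean is not given. Creb1 missed 0.001 under each single odour. In edgeR's test its adjusted p were 0.0046 (NCD), 0.0206 (Bacon) and 0.0027 (HFD) in the pulldown, and 0.0025, 0.0033 and 0.0045 in the input.

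Of 12 delayed neuronal activity genes tested, 3 rose in the pulldown under NCD, 4 under Bacon and 3 under HFD, against 3.7%, 3.77% and 4.63% of all genes. In the input 3, 4 and 2 rose, against 0.968%, 13.1% and 0.935% of all genes, and S100a5 fell under Bacon. Syt4, a synaptotagmin, had log2 fold changes of 0.73 ± 0.07 (NCD), 0.79 ± 0.07 (Bacon) and 0.64 ± 0.07 (HFD) in the pulldown, and its ratio rose under Bacon (0.42 ± 0.08) and HFD (0.42 ± 0.08). Nptx2, a secreted pentraxin, had 0.80 ± 0.11, 0.89 ± 0.11 and 0.63 ± 0.11 in the pulldown, and Kirrel2, an adhesion molecule that depends on activity in sensory neurons, had 0.83 ± 0.13, 0.76 ± 0.13 and 0.73 ± 0.13. Pcdh10, a protocadherin, had 0.61 ± 0.09, 1.32 ± 0.09 and 0.70 ± 0.09 in the input. S100a5, a calcium-binding protein of sensory neurons, and Nrn1, a neurite growth factor, had ratio changes of 1.16 ± 0.17 and 1.01 ± 0.15 for Bacon. From No Odour to Bacon, mean S100a5 went from 2935 to 3775 CPM in the pulldown and from 1875 to 1024 CPM in the input. Its highest No Odour input had 2948.5 CPM, where the group median was 1608.7 CPM. Mean Nrn1 went from 3.17 to 4.61 CPM in the pulldown and from 4.73 to 3.39 CPM in the input. In the ratio 0 of the 12 genes rose under NCD, 3 under Bacon and 1 under HFD, against 0.524%, 3.78% and 1.22% of all genes. The scatter of changes averaged over the 3 odours sets these lists beside the 10 members.

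**Figure D4:**
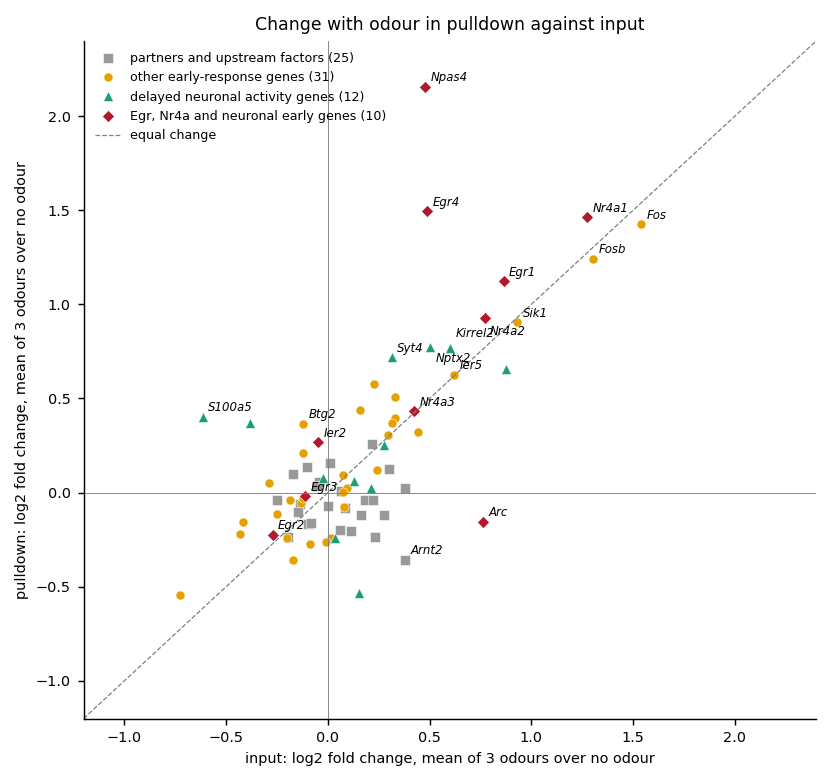
Log2 fold change over No Odour, averaged over the 3 odours, in the input (x axis) and the pulldown (y axis) for the 10 members and the genes tested from 3 lists; the dashed line marks an equal change in both. Nr4a1, Egr1 and Nr4a2 lie near the line with Fos and Sik1, Npas4 and Egr4 lie far above it, and Arc lies below it.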

How the data were processed

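RNA from 21 pools of main olfactory epithelium was sequenced as a pulldown and an input library each. The authors quantified reads with Salmon against GRCm38 and deposited estimated counts per gene, of which 30.9% were not whole numbers, and these were rounded. Genes without a name (556, with 0.525% of counts) stayed in the table that was filtered and tested. Genes were kept by edgeR's filterByExpr with a minimum count of 10 over the 8 groups. Counts were scaled by TMM and tested two-sided with the quasi-likelihood test of edgeR 4.0.16 (limma 3.58.1, R 4.3.3), separately for pulldown and input, and for the ratio in one fit of both with a term for each pool. Calls used a Benjamini-Hochberg adjusted p under 0.001 over all genes tested, and log2 ratios per pool a prior count of 2. DESeq2 1.42.0 and the alternatives named in the closing section were also run. Of these, leaving out Bacon replicate 1 and No Odour replicate 4 together was not planned beforehand. The biological coefficient of variation was 13.59% in the pulldown, 11.74% in the input and 11.98% in the ratio fit.

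Of 90 pairs of libraries within groups, the lowest chi-square per degree of freedom was 3.33, so no pair was treated as 1 library. Error bars at 95% are 1.96 SE, and intervals cover the spread between pools only. Fold changes are printed for each member that had an unadjusted p under 0.05 in that comparison, or that passed in another readout of it. The members and the gene lists were chosen with earlier results of these data known.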

Additional observations from a re-analysis of the deposited data

Results flagged for a closer look

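In 10 of the 120 groups of pools tested, the highest or lowest pool lay far from the others by Dixon's test at 95%, where chance alone gives about 1 group in 20. In the pulldown these were Egr1 in HFD replicate 6 (80.1 CPM, the other pools having a median of 87.2 CPM), Egr4 in NCD replicate 4 (0.733 against 1.17 CPM), Nr4a3 in Bacon replicate 1 (16.8 against 26.4 CPM) and Npas4 in HFD replicate 5 (0.978 against 0.662 CPM). In the input they were Egr2 in Bacon replicate 1 (0.641 against 0.959 CPM), Nr4a2 in NCD replicate 1 (9.79 against 8.74 CPM) and Arc in No Odour replicate 4 (1.08 against 2.74 CPM). For the log2 ratio they were Egr3 in Bacon replicate 1 (-0.0909 against 1.91), Arc in No Odour replicate 4 (2.04 against 0.88) and Npas4 in Bacon replicate 3 (1.94 against 0.23). Bacon replicate 1 of the pulldown and No Odour replicate 4 of the input are the libraries that stood apart over all genes. Without No Odour replicate 4 the log2 change of the Arc ratio was -0.58 for NCD, -0.74 for Bacon (adjusted p 0.00244 in edgeR's test) and -0.91 for HFD (0.000806).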

How the results depend on the processing

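Egr1 and Nr4a1 passed in pulldown and input for each odour under every alternative tried. The numbers of members that passed moved as follows, and the causes were not tested. In the ratio, Bacon gave 0 members with DESeq2's size factors in edgeR, with the replicate block, with the share of ribosomal RNA added to the fit, without Bacon replicate 1 and No Odour replicate 4 together, and on the compared groups alone, and HFD gave 0 with the replicate block, the ribosomal RNA share or the compared groups alone. In the pulldown, NCD gave 5 in DESeq2, 5 without those 2 pools and 2 with the ribosomal RNA share. Bacon gave 5 in DESeq2 and without those pools, and 3 with the replicate block, the ribosomal RNA share or the compared groups alone. HFD gave 4 in DESeq2, with total counts, without the filter and without those pools, and the test among odours gave 1 (Nr4a1) without them. In the input, NCD gave 4 in DESeq2 and 4 with total counts as library size. Bacon gave 2 with the ribosomal RNA share and 2 on the compared groups alone, 3 with DESeq2's size factors, the block or without those pools, and 5 with total counts. HFD gave 4 in DESeq2, with total counts and without the filter, and 2 with the block, the ribosomal RNA share or the compared groups alone. With total counts, 2189 (NCD), 5786 (Bacon) and 1645 (HFD) of all genes passed in the input, against 205, 2767 and 198 in the main fit. The higher counts of members there thus came with more calls over all genes. For DESeq2 and the fits without the filter or without those pools the share of all genes is not given. Their counts cannot be read as particular to the members. Pulldown against input without odour gave 4 with the block and 5 with the ribosomal RNA share. At an adjusted p under 0.05 the members counted were 2 (NCD) and 2 (Bacon) in the ratio, 6, 7 and 5 (NCD, Bacon and HFD) in the pulldown, and 4, 7 and 5 in the input.

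Leaving out 1 pool at a time gave 0 to 1 members for Bacon and for HFD in the ratio, 3 to 4 for both in the pulldown, 2 to 3 for NCD and 3 to 4 for Bacon in the input, and no other count of members moved. Total counts as library size put the median of all genes at 0.21 (NCD), 0.33 (Bacon) and 0.21 (HFD) in the input and at -0.15, -0.23 and -0.13 in the ratio. Below 0 but above that median, the ratio of Egr1 was then -0.00019 for Bacon, that of Nr4a1 -0.0823 for Bacon, and that of Nr4a2 -0.0081, -0.0693 and -0.0354. From 0.14, 0.16 and 0.08, the Nr4a2 ratio turned with the ribosomal RNA share (-0.21, -0.18 and -0.31) and without No Odour replicate 1 (-0.0571, -0.0351 and -0.109), with upper ends of 0.31, 0.358 and 0.267 when any other pool was left out, and none of these ratios passed.

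The 54 correlations between same-numbered libraries of different odours had a median of 0.0137 (-0.343 to 0.157), and 5 were over 0.1. For the pulldown and input of the same pool, which are paired, the 21 correlations had a median of 0.0135 (-0.081 to 0.216). This measure thus misses a known pairing and cannot decide whether replicate numbers pair the pools. With the replicate block the log2 change was -1.02 (Bacon) and -1.13 (HFD) for the Arc ratio and 2.50 (Bacon, adjusted p 0.00315 in edgeR's test) for the Npas4 pulldown, none of which passed, the HFD input of Nr4a2 (0.85) and the Bacon input of Arc (0.80) did not pass either, and Egr2 (0.97) and Egr3 (1.57) no longer passed without odour. Low counts of Egr4 (0 to 45 per library) and Npas4 (0 to 42) limit what their tests can show.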

Other observations

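The genes whose log2 CPM followed the mean standardised level of the 10 members most closely over the 21 pools were, in the pulldown, Nrn1l (Pearson's r 0.947), Pdlim1 (0.942), Drd2 (0.940), Ubl3 (0.933) and Snhg3 (0.930). Within the 16 odour pools alone r was 0.922, 0.870, 0.861, 0.831 and 0.900. In the input they were Sik1 (0.919), Klhl25 (0.905), Tle3 (0.891), Dtna (0.886) and Diexf (0.882), with r of 0.732, 0.633, 0.778, 0.549 and 0.440 within the odour pools. These values describe libraries that share the difference between odour and no odour.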
